A study of Mus musculus with 38 samples.

Results

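The CD28 family and inhibitory receptors are described here through 10 genes: Cd28, Icos, Ctla4, Pdcd1, Btla, Lag3, Tigit, Cd226, Cd200 and Cd5. They were taken by name from the counted genes, 10 of 24028 in the table, and all 10 passed the filter on low counts that left 13650 genes tested. The rule used no measured value, but the set was proposed with earlier results of these data known. CD28 and its relatives are receptors of the immunoglobulin superfamily that tune what a T cell does once its antigen receptor is engaged. CD28 and ICOS add a stimulatory signal, whereas CTLA-4, PD-1 and BTLA restrain the cell and in part compete for the same ligands or signalling proteins. LAG-3, TIGIT, CD200 and CD5 are further receptors or ligands linked to restraint, and CD226 is the stimulatory partner of TIGIT, with which it shares ligands.

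Each library was made from polyA RNA of naive CD4 T cells purified from lymph nodes and spleen of a single mouse, male or female, of unstated age. One set of cells (24h) was kept for 24 h on plates coated with antibodies to CD3 at 0.5 µg/ml and to CD28 at 0.2 µg/ml, in medium with 50 U/ml interleukin-2. The other was taken directly (naive). Rescue mice were labelled CD28-/- and also carried a Cd4-driven Cre recombinase with a miR-17~92 transgene, which Cre switches on at the Rosa26 locus by removing a stop cassette in front of a CAG promoter. CD28-/- mice lacked both Cre and transgene. T1792tg/tg mice had the same Cre and transgene as rescue mice without the CD28-/- label. In T1792delta/delta mice the same Cre deletes a floxed miR-17~92 cluster. Wild-type (wt) mice were the reference, and no group is labelled as Cre alone, so an effect of Cre cannot be told apart from that of the transgene or deletion. There were 4 libraries in each of the 10 groups except 24h rescue and naive rescue with 3 each, 38 libraries in all. All 24h cultures received the anti-CD28 antibody, those labelled CD28-/- included.

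Library totals ran from 19427291 to 28020721 counts. Mir17, the first microRNA of the cluster, had 6.88 ± 1.84 CPM (read counts scaled by library total; mean ± SD) in naive rescue and 6.55 ± 0.9 in naive T1792tg/tg libraries, against 0.336 ± 0.216 in naive CD28-/- and 0.334 ± 0.0969 in naive wt libraries. It had 0.0641 ± 0.0766 CPM in naive T1792delta/delta libraries and no count in the 24h T1792delta/delta libraries. Other 24h groups were low too, at 0.571 ± 0.0399 in rescue, 0.624 ± 0.231 in T1792tg/tg, 0.164 ± 0.0398 in CD28-/- and 0.131 ± 0.0188 CPM in wt. The absence at 24h therefore lies near the floor. Mir17hg, the host transcript of the cluster, had 172 ± 11.8 CPM in 24h T1792delta/delta and 20.7 ± 2.44 CPM in 24h wt libraries. Cd28 counts do not check the CD28-/- label, because the transcript was counted at 506 to 598 CPM in 24h and 551 to 846 CPM in naive libraries labelled CD28-/-. Counts per gene can include a remnant transcript, and the sources used here do not say which part was deleted, so CD28-/- and rescue stand below for libraries labelled so. The 4 matched genes of a CD4 T cell list of 5 summed to 1294 to 1757 CPM in 24h and 2814 to 3361 CPM in naive libraries, with none at 0. Markers of B cells (6 matched of 7) summed to 20.6 to 78.8 CPM at 24h and 110 to 446 CPM in naive libraries. Myeloid and dendritic markers (7) summed to 12.8 to 56.4 and 199 to 559 CPM, CD8 and NK markers (7) to 40.3 to 212 and 74.3 to 140 CPM, and platelet markers (4) to 1.66 to 4.18 and 12 to 57 CPM, at 24h and in naive libraries. In such bulk samples, fewer cells of a type and less RNA per cell cannot be told apart. Replicates within a state are single mice, so p-values measure the spread between these libraries. By Xist and Y-linked genes, 3 of 4 T1792tg/tg, 2 of 4 T1792delta/delta and 1 of 4 wt libraries of each state had a male pattern, against 0 of 3 rescue and 0 of 4 CD28-/- libraries. Naive CD28-/- replicate 1 and naive rescue replicate 2 lay farthest from the other libraries of their groups.

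The groups differ in the miR-17~92 cluster, so its mature microRNAs are shown with their seeds (bases 2 to 8, in capitals), the part that pairs with target transcripts. Sequences are from RefSeq on GRCm38.p6, where the cluster lies on the plus strand of chromosome 14. Of the 6 sequences, miR-17-5p and miR-20a-5p share a seed, as do miR-19a-3p and miR-19b-3p.
mmu-miR-17-5p: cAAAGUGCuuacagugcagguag
mmu-miR-20a-5p: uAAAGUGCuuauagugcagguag
mmu-miR-18a-5p: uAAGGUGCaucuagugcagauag
mmu-miR-19a-3p: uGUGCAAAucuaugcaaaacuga
mmu-miR-19b-3p: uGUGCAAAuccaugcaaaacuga
mmu-miR-92a-3p: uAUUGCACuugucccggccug

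Matches to these seeds were looked for downstream of the coding sequence, taking per gene the transcript with the most 3' untranslated sequence, at least 30 bases (GENCODE, GRCm38). Of the 10 receptors 2 (20%), Icos and Cd226, held any of the 4 kinds of site, beside 30.5% of 20975 genes. Both had a match to the miR-17-5p and miR-20a-5p seed, GCACTTT, that was extended by an A to 8 bases, and this 7-base match occurred in 12.3% of genes (3.54% with the A). No receptor held a site for miR-18a-5p, miR-19 or miR-92a-3p, whose 7-base matches occurred in 8.64%, 12.1% and 6.95% of genes. Untranslated regions of the receptors ran from 81 bases in Lag3 and 134 bases in Tigit to 3574 bases in Cd28, and the median of all genes was 1098. Both transcripts differed between naive T1792tg/tg and wt cells, in opposite directions: Icos was lower and Cd226 higher in T1792tg/tg cells. At 24h neither passed the test between T1792tg/tg and wt cells in the fit of all libraries. Icos was lower in 24h T1792delta/delta than in wt cells, and a part of the sites in these values was not tested. The Icos site is shown as an example, with the match in capitals, and that of Cd226 is not printed. It lies at chr1:60998982-60998988 on the plus strand, at base 1268 of the 2606-base untranslated region.
Icos site: agtcagccctaGCACTTTaagatagccttc

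Several of the genes are neighbours. On GRCm38.p6, Cd28 (gene ID 12487) spans chr1:60746388-60773359, Ctla4 (12477) chr1:60909025-60915832 and Icos (54167) chr1:60960773-61000322, all on the plus strand. The ends of Cd28 and Ctla4 lie 135.7 and 44.9 kb before the starts of Ctla4 and Icos. Pdcd1 (18566) lies 33 Mb farther on the same chromosome at chr1:94038305-94052553 on the minus strand. On chromosome 16, Tigit (100043314) spans chr16:43626137-43665125 (minus), Btla (208154) chr16:45223705-45252895 (plus) and Cd200 (17470) chr16:45382111-45409060 (minus), with the start coordinates of Btla and Cd200 158.4 kb apart. Lag3 (16768) spans chr6:124904359-124912434 and Cd5 (12507) chr19:10718107-10739026, both on the minus strand. Cd226 (225825) lies on the plus strand of chromosome 18.

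Levels between genes were compared per length (TPM), with a deposited length per gene whose definition is not stated, so the order depends on it. On this scale the order of the receptors in 24h wt cells was Cd5 at 877 ± 67.1, Cd200 at 479 ± 9.89, Btla at 313 ± 11.2, Ctla4 at 185 ± 8.59 and Pdcd1 at 162 ± 12.9 TPM (SD, n = 4). Below these came Cd28 at 133 ± 13.3, Icos at 127 ± 5.04, Lag3 at 106 ± 12.4, Cd226 at 63.5 ± 11.5 and Tigit at 29.8 ± 3.03 TPM. Naive wt cells had another order. Cd5 again had the highest level, 582 ± 53.6 TPM, followed by Cd28 at 352 ± 63.3, Ctla4 at 208 ± 43.8, Btla at 136 ± 29.6 and Icos at 131 ± 40.2 TPM. Cd226 stood at 42.2 ± 6.82, Tigit at 21.2 ± 5.95 and Cd200 at 14.8 ± 2.31 TPM, with Pdcd1 at 5.74 ± 0.679 and Lag3 at 5.73 ± 0.455 TPM the lowest. Cd200, Pdcd1 and Lag3 therefore were the 3 receptors of lowest level in naive wt cells, and Cd200 was second to Cd5 after 24 h.

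The first comparison asks what 24 h of stimulation did to these transcripts within each genotype. Cd200, Pdcd1 and Lag3 rose strongly in every genotype, Btla and Cd5 rose in every genotype, and Cd28 fell in every genotype. Cd226 rose in wt, T1792delta/delta and T1792tg/tg cells and fell in rescue and CD28-/- cells, while Ctla4 and Icos did not pass the test in wt cells. A gene was called at a Benjamini-Hochberg adjusted p below 0.05 over all tested genes in edgeR's quasi-likelihood test. In wt cells 7 receptors were higher and 1 lower at 24h, where 41.3% of all genes were higher and 43.9% lower, 85.2% together. The counts were 7 higher and 3 lower in rescue cells (38.8% and 40.8% of all genes, 79.7% together), and 5 higher and 2 lower in CD28-/- cells (39.7% and 41.2%, 80.9% together). They were 8 and 2 in T1792tg/tg cells (41% and 44.1%, 85.1% together) and 8 and 1 in T1792delta/delta cells (41.4% and 43.7%, 85.1% together). The median log2 fold change of the 10 receptors lay between 0.45 in CD28-/- cells and 1.1 in T1792tg/tg cells, beside medians of -0.07 to -0.04 over all genes. Since most genes changed, a called receptor is not unusual in itself, and the sizes below carry the description.

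**Figure D1:**
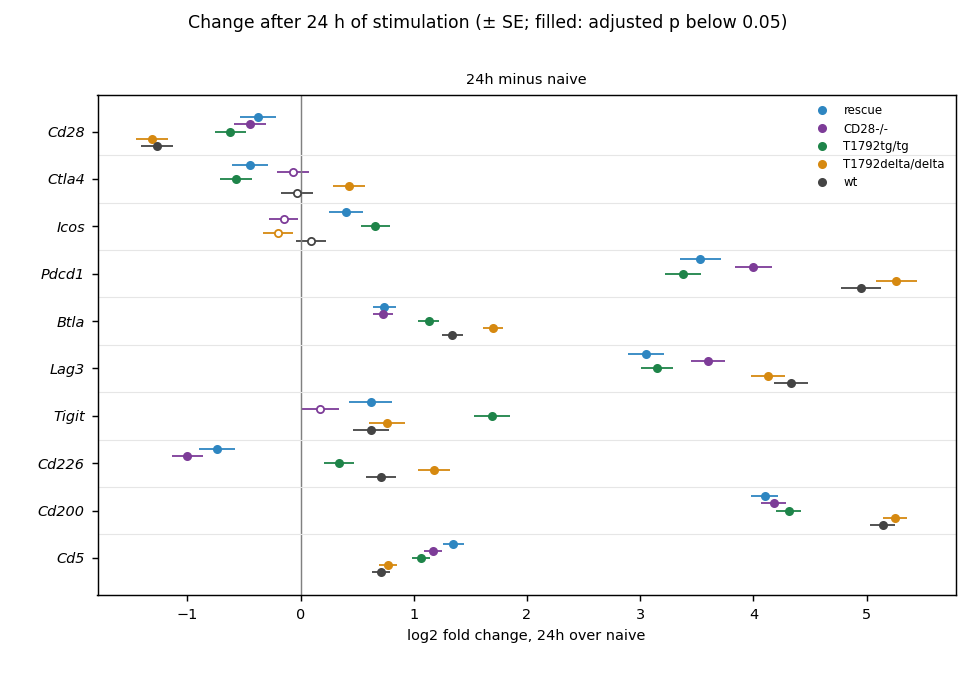
Log2 fold change of 24h over naive cells (horizontal axis) for each receptor in each genotype, with bars of 1 SE and filled points where the adjusted p was below 0.05. Cd200, Pdcd1 and Lag3 lie between 3.05 and 5.26 in all genotypes, and Cd226 is positive in T1792tg/tg, T1792delta/delta and wt cells but negative in rescue and CD28-/- cells.

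The second set of comparisons asks how genotypes differed once stimulated. At 24h, Cd200, Cd226, Ctla4, Tigit, Lag3 and Btla were lower in CD28-/- than in wt cells, and Cd28, Pdcd1 and Cd5 were higher. That is 3 receptors higher and 6 lower, where 23.7% of all genes were higher and 27.8% lower, 51.5% together, and the median log2 fold change was -0.52 beside -0.03 over all genes. Between rescue and CD28-/- cells, Tigit and Cd226 were higher and Btla lower in rescue cells, which is 2 and 1 (9.52% and 8.86% of all genes, 18.4% together). Without 24h rescue replicate 2 the count of 3 dropped to 1. Rescue cells against wt had 1 receptor higher, Pdcd1, and 5 lower, Cd200, Ctla4, Btla, Cd226 and Lag3 (17.4% and 17.7%, 35.1% together). T1792tg/tg cells against wt had 1 higher, Tigit, and 2 lower, Btla and Cd200 (6.1% and 6.45%, 12.5% together). T1792delta/delta cells against wt had 1 higher, Btla, and 1 lower, Icos (7.77% and 8.47%, 16.2% together). The comparison of rescue with CD28-/- cells and that of CD28-/- with wt cells share the CD28-/- libraries.

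The same comparisons in naive cells ask what differed before stimulation. Pdcd1 and Cd226 were higher and Ctla4 lower in CD28-/- than in wt cells, 2 and 1 receptors (7.42% and 7.34% of all genes, 14.8% together). Without naive CD28-/- replicate 1, 5 receptors were called in place of 3. T1792tg/tg cells against wt had 4 higher, Pdcd1, Lag3, Cd226 and Cd200, and 3 lower, Icos, Cd28 and Cd5 (10.5% and 12.6%, 23.1% together). Rescue against CD28-/- cells had 2 higher, Lag3 and Cd226, and 3 lower, Icos, Cd5 and Btla (7.84% and 8.92%, 16.8% together), and 3 in place of 5 were called without naive CD28-/- replicate 3 or without naive rescue replicate 2. Rescue against wt cells had 3 higher, Pdcd1, Cd226 and Lag3, and 4 lower, Cd28, Cd5, Ctla4 and Icos (12.5% and 13.6%, 26.1% together). None of the 10 was called between naive T1792delta/delta and wt cells by edgeR or by DESeq2, with 2 at an unadjusted p below 0.05, and 2.76% of all genes were higher and 2.42% lower, 5.19% together.

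**Figure D2:**
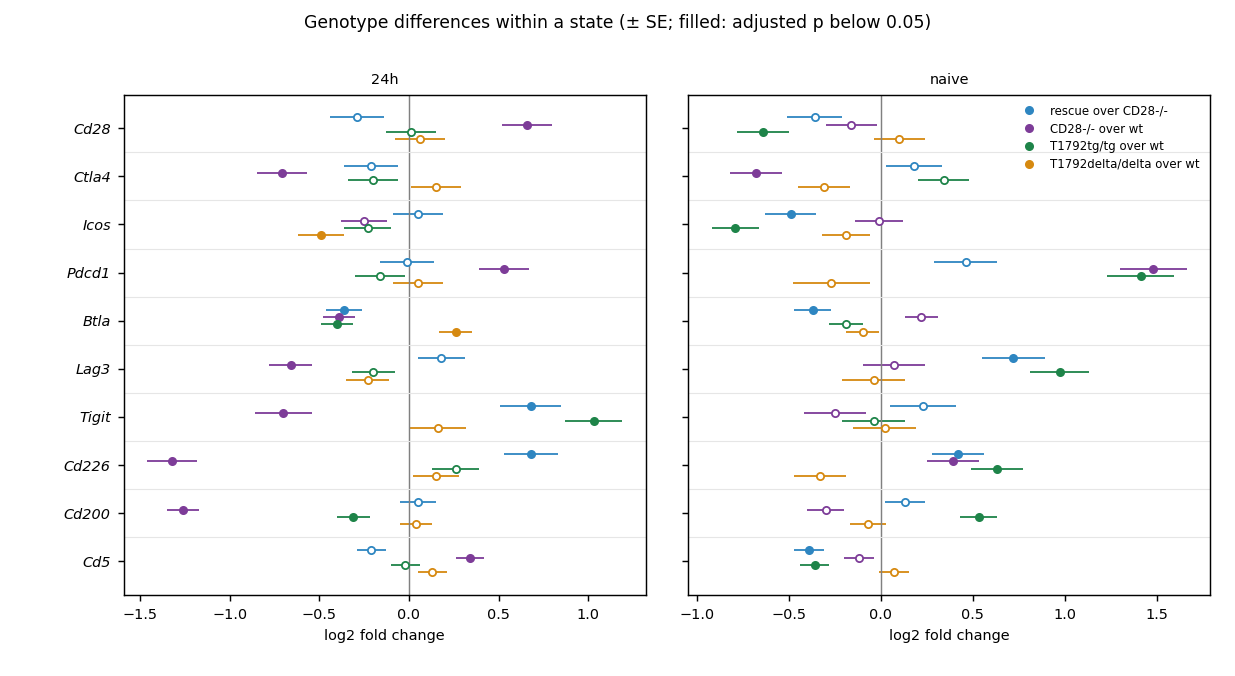
Log2 fold change between genotypes (horizontal axes) at 24h on the left and in naive cells on the right, with bars of 1 SE and filled points where the adjusted p was below 0.05. At 24h Cd226 and Cd200 lie at -1.32 and -1.26 for CD28-/- over wt, and in naive cells Pdcd1 lies at 1.48 for CD28-/- over wt and 1.41 for T1792tg/tg over wt.

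Cd28 encodes the receptor that gives naive T cells their principal costimulatory signal. At 24h it had 481, 404 and 435 CPM in rescue, 527, 524, 598 and 506 CPM in CD28-/-, and 353, 292, 345 and 377 CPM in wt libraries. The 3 groups did not overlap at 24h, with CD28-/- highest and wt lowest. The T1792tg/tg (344 ± 33.6 CPM) and T1792delta/delta (356 ± 38.5 CPM) libraries overlapped with wt (342 ± 35.5 CPM; SD, n = 4). The log2 fold change of CD28-/- over wt was 0.66 ± 0.14 (SE, adjusted p 2e-04), and the differences of rescue from CD28-/- (-0.29 ± 0.15, adjusted p 0.2) and from wt (0.37 ± 0.15, adjusted p 0.059) were not called. The last passed with DESeq2 (adjusted p 0.042) and in a fit of these groups alone (0.40, adjusted p 0.0029), and rescue over CD28-/- passed in the fit alone (-0.31, adjusted p 0.0091). In naive cells the order of means was T1792delta/delta at 886 ± 136, wt at 825 ± 86.8, CD28-/- at 737 ± 135, rescue at 574 ± 64.8 (n = 3) and T1792tg/tg at 530 ± 148 CPM, and each overlapped with its neighbour. T1792tg/tg was below wt by a log2 fold change of -0.64 ± 0.14 (adjusted p 0.0011), although 1 library of each group overlapped. Rescue was below wt by -0.52 ± 0.15 (adjusted p 0.011), a call lost without naive rescue replicate 2 (-0.44, adjusted p 0.088).

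After 24 h, Cd28 fell by a log2 fold change of -1.27 ± 0.14 in wt and -1.31 ± 0.14 in T1792delta/delta cells. The change was -0.62 ± 0.14 in T1792tg/tg, -0.45 ± 0.14 in CD28-/- and -0.38 ± 0.16 in rescue cells. The fall was smaller in CD28-/- than in wt cells by 0.82 ± 0.20 (adjusted p 0.0011) and smaller in T1792tg/tg than in wt cells by 0.65 ± 0.20 (adjusted p 0.023). The rescue fall (adjusted p 0.032) was lost without 24h rescue replicate 2 or 3 or naive rescue replicate 1 or 3 (adjusted p 0.11, 0.07, 0.12 and 0.077). The T1792tg/tg difference was lost without 24h wt replicate 2, naive T1792tg/tg replicate 3 or naive wt replicate 2 (adjusted p 0.056, 0.055 and 0.052). What a Cd28 transcript in cells labelled CD28-/- holds was not tested.

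Icos encodes an inducible costimulatory receptor that binds ICOS ligand. In naive cells it had 79.9, 124, 104 and 102 CPM in T1792tg/tg and 157, 243, 164 and 146 CPM in wt libraries. All T1792tg/tg libraries lay below all wt libraries, of which replicate 2 stood highest. The log2 fold change was -0.79 ± 0.13 (adjusted p 4e-05). Rescue libraries had 140, 130 and 108 CPM and CD28-/- libraries 144, 187, 210 and 166 CPM, again with no overlap. That difference was -0.49 ± 0.14 (adjusted p 0.017) and was lost without naive CD28-/- replicate 3 (-0.39, adjusted p 0.08) or naive rescue replicate 3 (-0.39, adjusted p 0.1). Rescue also lay below wt by -0.49 ± 0.14 (adjusted p 0.01), a call lost without naive rescue replicate 3 (-0.39, adjusted p 0.064) or naive wt replicate 2 (-0.30, adjusted p 0.097). In a fit of the compared groups alone the 2 rescue differences had adjusted p of 0.065 and 0.073.

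At 24h the Icos means were 166 ± 12.9 in rescue (n = 3), 160 ± 12.2 in CD28-/-, 162 ± 18.3 in T1792tg/tg, 135 ± 13.2 in T1792delta/delta and 189 ± 8.33 CPM in wt libraries. In the fit of all libraries only T1792delta/delta was called against wt, with 132, 120, 152 and 135 CPM against 193, 177, 192 and 196 CPM in wt libraries, a log2 fold change of -0.49 ± 0.13 (adjusted p 0.0099) without overlap. CD28-/- minus wt was -0.25 ± 0.13 (adjusted p 0.12), although the libraries did not overlap, and it passed in a fit of these groups alone (-0.21, adjusted p 0.0059). In such fits rescue (-0.16, adjusted p 0.041) and T1792tg/tg (-0.22, adjusted p rounding to 0.05, just below the threshold) also passed against wt. The response to stimulation was 0.66 ± 0.13 in T1792tg/tg and 0.40 ± 0.15 in rescue cells, both called, and was not called in CD28-/- (-0.15 ± 0.13), T1792delta/delta (-0.20 ± 0.13) or wt cells (0.09 ± 0.13). Without 24h rescue replicate 1 or naive rescue replicate 3 the rescue response was lost (adjusted p 0.074 and 0.11), and without naive wt replicate 2 a wt response of 0.28 was called (adjusted p 0.032). The T1792tg/tg response exceeded that of wt by 0.57 ± 0.19 (adjusted p 0.034), a call that 7 of 16 single libraries ended (24h T1792tg/tg replicates 1, 3 and 4, naive T1792tg/tg replicates 1 and 4, 24h wt replicate 2 and naive wt replicate 2; adjusted p 0.052 to 0.13).

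Ctla4 encodes the inhibitory receptor that binds the same ligands as CD28 with higher affinity and is abundant in regulatory T cells. At 24h it had 109, 73.9 and 77.5 CPM in rescue, 118, 99.1, 98.6 and 85.1 CPM in CD28-/-, and 162, 156, 162 and 175 CPM in wt libraries. Both groups labelled CD28-/- lay below all wt libraries and overlapped with each other. The log2 fold change was -0.92 ± 0.16 for rescue over wt (adjusted p 2e-05) and -0.71 ± 0.14 for CD28-/- over wt (adjusted p 7.4e-05), and -0.21 ± 0.15 for rescue over CD28-/- (adjusted p 0.4). T1792tg/tg (143 ± 19.4 CPM) and T1792delta/delta (182 ± 31.3 CPM) did not pass against wt (164 ± 8 CPM).

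In naive cells Ctla4 had 133, 122 and 101 CPM in rescue, 90.2, 108, 114 and 107 CPM in CD28-/-, and 147, 202, 164 and 156 CPM in wt libraries. The CD28-/- and rescue libraries all lay below wt. The CD28-/- difference from wt was -0.68 ± 0.14 (adjusted p 0.0015) and the rescue difference -0.50 ± 0.15 (adjusted p 0.015), the second lost without naive rescue replicate 3 or naive wt replicate 2 (-0.40 each, adjusted p 0.083 and 0.072). T1792tg/tg libraries, at 153 to 273 CPM, had the highest mean, 212 ± 49 CPM, and overlapped with wt (0.34 ± 0.14, adjusted p 0.076), while without naive T1792tg/tg replicate 1 or naive wt replicate 2 the difference passed (0.47 and 0.45, adjusted p 0.013 and 0.033). The T1792delta/delta mean was 135 ± 16.7 CPM and did not pass (-0.31 ± 0.14, adjusted p 0.21). Markers of regulatory T cells moved alongside only in part. The 7-gene list summed to 101 to 136 CPM in naive rescue, 80.7 to 90.2 in CD28-/-, 146 to 197 in T1792tg/tg, 105 to 127 in T1792delta/delta and 110 to 128 CPM in wt libraries. Foxp3, their defining transcription factor, had 5.65 ± 0.352 CPM in naive rescue, 4.63 ± 0.832 in CD28-/-, 27.3 ± 4.38 in T1792tg/tg, 20.9 ± 2.4 in T1792delta/delta and 21.7 ± 1.63 CPM in wt libraries. Of the 7 markers, 1 was higher and 4 lower in naive CD28-/- than in wt cells (14.8% of all genes called). In naive rescue cells 1 was higher and 3 lower than in wt cells (26.1% called). In naive cells 3 were higher in rescue than in CD28-/- cells (16.8% of all genes called). In naive T1792tg/tg cells 5 were higher than in wt cells (23.1% called), and none was at 0 in any group. Ikzf2, one of the 7, stood higher in naive rescue (62 ± 14.9 CPM) and CD28-/- (39.1 ± 1.6) than in wt libraries (25.9 ± 3.18). Lrrc32, also of the 7, stood lower in naive rescue (3.45 ± 0.625 CPM) and CD28-/- (2.65 ± 0.471) than in wt libraries (20.4 ± 1.41). So did Il2ra, at 7.7 ± 0.836 CPM in naive rescue, 5.23 ± 0.594 in CD28-/- and 15.4 ± 1.38 in wt libraries. At 24h the sum also holds activation genes such as Il2ra, and its members went both ways. Of the 7 markers, 4 were higher and 2 lower in 24h rescue than in wt cells (35.1% of all genes called). In 24h CD28-/- cells 3 were higher and 4 lower than in wt cells (51.5% called). Nrp1, a semaphorin receptor, was at 68.1 ± 10.7 in 24h rescue, 31.8 ± 2.23 in CD28-/- and 13.1 ± 1.15 CPM in wt libraries, whereas Foxp3 was at 3.74 ± 1.4, 5.97 ± 1.16, 6.47 ± 2.23, 9.36 ± 1.57 and 9.42 ± 0.88 CPM in rescue, CD28-/-, T1792tg/tg, T1792delta/delta and wt libraries. The part of these markers in the Ctla4 values was not tested.

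Ctla4 responses to stimulation were small and of both signs. It rose in T1792delta/delta cells (0.43 ± 0.14, adjusted p 0.0054), fell in T1792tg/tg (-0.57 ± 0.14, adjusted p 0.00039) and rescue cells (-0.45 ± 0.16, adjusted p 0.013), and was not called in CD28-/- (-0.07 ± 0.14) or wt cells (-0.03 ± 0.14). The rescue fall was lost without 24h rescue replicate 2 or 3 or naive rescue replicate 1 (adjusted p 0.085, 0.067 and 0.072). The responses of CD28-/- and wt cells differed by -0.04 ± 0.20. T1792tg/tg minus wt was -0.54 ± 0.20 (adjusted p 0.059), and it passed with DESeq2 (adjusted p 0.039) and in a fit of these groups alone (adjusted p 0.049). It also passed without 24h T1792tg/tg replicate 1, naive T1792tg/tg replicate 1 or naive wt replicate 2 (adjusted p 0.029, 0.014 and 0.031).

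Pdcd1 encodes PD-1, an inhibitory receptor that activated T cells acquire. In naive cells it had 15.6, 20.8 and 17.1 CPM in rescue, 15.9, 11.4, 10.9 and 13.7 CPM in CD28-/-, 10.3, 11.4, 13 and 14.7 CPM in T1792tg/tg, and 4.9, 4.41, 4.85 and 4.42 CPM in wt libraries. Each of the first 3 groups lay wholly above wt. The log2 fold change over wt was 1.94 ± 0.19 in rescue (adjusted p 2.6e-09), 1.48 ± 0.18 in CD28-/- (adjusted p 8.7e-07) and 1.41 ± 0.18 in T1792tg/tg cells (adjusted p 6.6e-07). Naive T1792delta/delta libraries had 3.13 to 5.41 CPM, overlapping with wt. Follicular helper and memory T cells and some regulatory T cells express Pdcd1. Of the 9 follicular helper and memory markers, 5 were higher and 0 lower in naive T1792tg/tg than in wt cells, among them Cxcr5, a chemokine receptor of follicular cells (24.1 ± 5.27 against 11.5 ± 1.77 CPM), as were 5 of 7 regulatory markers. Of these 9, 0 were higher and 1 lower in naive rescue than in wt cells, and none was called between naive CD28-/- and wt cells. Of the 7 regulatory markers, 1 was higher and 3 lower in naive rescue than in wt cells. Between naive CD28-/- and wt cells 1 of the 7 was higher and 4 lower. Over all genes, the shares called against wt in naive cells were 23.1% for T1792tg/tg, 26.1% for rescue and 14.8% for CD28-/-. The part of these markers in the Pdcd1 values was not tested. Rescue over CD28-/- was 0.46 ± 0.17 with overlap (adjusted p 0.063), and it passed with DESeq2 (adjusted p 0.039) and without naive CD28-/- replicate 1 (0.57, adjusted p 0.022).

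At 24h Pdcd1 had 202, 204 and 213 CPM in rescue, 202, 207, 187 and 235 CPM in CD28-/-, and 140, 129, 147 and 157 CPM in wt libraries. Rescue and CD28-/- lay together above wt, by 0.53 ± 0.15 (adjusted p 0.0055) and 0.53 ± 0.14 (adjusted p 0.0015). T1792tg/tg (128 ± 20.4 CPM) and T1792delta/delta (149 ± 38 CPM) overlapped with wt (143 ± 11.9 CPM). The response was 4.95 ± 0.18 in wt and 5.26 ± 0.18 in T1792delta/delta cells, against 4 ± 0.16 in CD28-/-, 3.53 ± 0.18 in rescue and 3.38 ± 0.16 in T1792tg/tg cells. It was smaller than in wt by -0.94 ± 0.23 in CD28-/- (adjusted p 0.001) and by -1.57 ± 0.23 in T1792tg/tg cells (adjusted p 2.5e-05). Both groups lay above wt before stimulation, and at 24h T1792tg/tg overlapped with wt while CD28-/- lay above it.

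Because Pdcd1 and Cd200 had the largest responses of the 10, their annotated promoters (250 bases before to 50 after the start that the RefSeq promoter table uses, GRCm38.p6) are shown, read 5' to 3' on the strand of the gene. Capitals mark matches to GGAAA only, the core of NFAT sites, a calcium-driven transcription factor of activated T cells. Searched on both strands, TTTCC being the same letters on the other strand, it occurred in 61.3% of 32851 promoters of that length. The AP-1 motif TGANTCA occurred in 7.81% and the EGR motif GCGNGGGCG in 5.55%. The Pdcd1 promoter, chr1:94052504-94052803 on the minus strand, held 2 GGAAA matches side by side and neither other motif. The Cd200 promoter, chr16:45409004-45409303 on the minus strand, held 1 EGR match and neither of the others, and its start lies a few bases inside the gene span given above. Among the other receptors with a promoter in the table, Tigit held 2 GGAAA matches, Ctla4 and Cd5 1 each and Btla none, and none held the AP-1 or the EGR motif.
Pdcd1 promoter: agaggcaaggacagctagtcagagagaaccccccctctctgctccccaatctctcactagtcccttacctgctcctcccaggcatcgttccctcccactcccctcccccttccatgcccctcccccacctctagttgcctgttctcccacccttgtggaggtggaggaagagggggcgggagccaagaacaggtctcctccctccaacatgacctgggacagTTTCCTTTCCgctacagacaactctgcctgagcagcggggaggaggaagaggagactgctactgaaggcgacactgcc
Cd200 promoter: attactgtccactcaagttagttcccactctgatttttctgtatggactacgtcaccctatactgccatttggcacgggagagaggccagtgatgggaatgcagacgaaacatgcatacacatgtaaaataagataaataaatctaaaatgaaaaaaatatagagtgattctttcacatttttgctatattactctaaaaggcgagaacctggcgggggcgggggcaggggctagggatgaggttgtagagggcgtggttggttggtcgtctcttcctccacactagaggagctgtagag

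Btla encodes an inhibitory receptor for the TNF receptor family member HVEM. It was the receptor with the most separate 24h groups. It had 298, 253 and 276 CPM in rescue, 373.5, 326, 347 and 364 CPM in CD28-/-, 383, 318, 356 and 344 CPM in T1792tg/tg, 616, 554.5, 504 and 540 CPM in T1792delta/delta, and 460, 448, 454 and 488 CPM in wt libraries. T1792delta/delta was the highest, wt next, CD28-/- and T1792tg/tg overlapped below wt, and rescue was below all. Against wt the log2 fold change was -0.75 ± 0.10 in rescue (adjusted p 2.6e-07), -0.39 ± 0.09 in CD28-/- (adjusted p 0.00036) and -0.40 ± 0.09 in T1792tg/tg cells (adjusted p 0.0021). T1792delta/delta was above wt by 0.26 ± 0.09 (adjusted p 0.04), a call that 5 of 8 single libraries ended (T1792delta/delta replicates 1 and 2, wt replicates 1, 2 and 3; 0.20 to 0.26, adjusted p 0.074 to 0.17). It was also lost without the filter on low counts (adjusted p 0.066) and with a term for sex (adjusted p 0.057). Rescue was below CD28-/- by -0.36 ± 0.10 (adjusted p 0.0079), lost without 24h rescue replicate 2 (-0.30, adjusted p 0.084). Transgenic libraries were lower in both backgrounds, and the transgene effect in the CD28-/- background minus that in wt was 0.05 ± 0.13 (adjusted p 0.94).

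Naive Btla means were 165 ± 15.8 in rescue, 212 ± 23.6 in CD28-/-, 160 ± 14.1 in T1792tg/tg, 170 ± 10.2 in T1792delta/delta and 183 ± 25.7 CPM in wt libraries, and all neighbours in the order overlapped. Rescue was below CD28-/- by -0.37 ± 0.10 (adjusted p 0.0078), lost without naive rescue replicate 2 (-0.31, adjusted p 0.063) and in a fit of these groups alone (adjusted p 0.071). CD28-/- over wt was 0.22 ± 0.09 (adjusted p 0.096), and it passed without naive CD28-/- replicate 1 (0.28, adjusted p 0.031). Stimulation raised Btla by 1.70 ± 0.09 in T1792delta/delta, 1.34 ± 0.09 in wt, 1.13 ± 0.09 in T1792tg/tg, 0.74 ± 0.10 in rescue and 0.73 ± 0.09 in CD28-/- cells. The CD28-/- response was smaller than that of wt by -0.61 ± 0.13 (adjusted p 0.00017). T1792delta/delta minus wt was 0.36 ± 0.13 (adjusted p 0.076), and it passed with DESeq2 (adjusted p 0.039) and without naive wt replicate 1 (0.45, adjusted p 0.02).

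Lag3 encodes an inhibitory receptor related to CD4 that binds MHC class II. At 24h it had 64.7, 75.4 and 69.3 CPM in rescue, 63.9, 56.3, 58.8 and 68.1 CPM in CD28-/-, and 93.1, 85, 113 and 98.8 CPM in wt libraries. All rescue and CD28-/- libraries lay below all wt libraries. The differences from wt were -0.48 ± 0.13 in rescue (adjusted p 0.0052) and -0.66 ± 0.12 in CD28-/- (adjusted p 3.4e-05). T1792tg/tg (84.5 ± 8.58 CPM) and T1792delta/delta (82.8 ± 14.7 CPM) overlapped with wt (97.4 ± 11.7 CPM). In naive cells the groups with the transgene stood higher, with 7.34, 8.4 and 9.43 CPM in rescue against 5.75, 4.3, 4.86 and 5.43 CPM in CD28-/-, and 8.38, 7.73, 9.16 and 12.7 CPM in T1792tg/tg against 5.44, 4.62, 3.85 and 5.59 CPM in wt libraries. Neither pair overlapped. The log2 fold change was 0.72 ± 0.17 for rescue over CD28-/- (adjusted p 0.0025) and 0.97 ± 0.16 for T1792tg/tg over wt (adjusted p 2.1e-05). Markers of CD8 and NK cells, types that also express Lag3, summed to 123 to 137 CPM in naive rescue against 94.9 to 119 in CD28-/-, and 90.1 to 140 in T1792tg/tg against 74.3 to 82.1 CPM in wt libraries. At 24h they summed to 100 to 139 CPM in rescue, 40.3 to 44.8 in CD28-/-, 141 to 212 in T1792tg/tg and 66.1 to 118 CPM in wt libraries. Of the 7, 1 was higher and 5 lower in 24h CD28-/- than in wt cells (51.5% of all genes called). In 24h rescue cells 2 were higher and 1 lower than in wt cells (35.1% called). In T1792tg/tg cells 1 of the 7 rose and 6 fell from naive to 24h (85.1% of genes called), although the sum did not fall. The 24h sums can therefore rest on 1 gene that stimulation raises, and need not follow the number of these cells. The part of these markers in the Lag3 values was not tested. Lag3 rose by 4.33 ± 0.15 in wt, 4.13 ± 0.15 in T1792delta/delta, 3.60 ± 0.15 in CD28-/-, 3.15 ± 0.14 in T1792tg/tg and 3.05 ± 0.16 in rescue cells. The rise was smaller than in wt by -0.72 ± 0.21 in CD28-/- (adjusted p 0.0046) and -1.18 ± 0.20 in T1792tg/tg cells (adjusted p 0.00012).

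Tigit encodes an inhibitory receptor for CD155 and related nectin family proteins. Its 24h level was highest where the transgene was present in a CD28-sufficient background. It had 24.7, 26, 25.6 and 31.1 CPM in T1792tg/tg against 12.7, 13.2, 14.9 and 11.7 CPM in wt libraries, with no overlap (1.03 ± 0.16, adjusted p 1.6e-05). In CD28-/- libraries it had 8.91, 7.94, 7.67 and 7.74 CPM, all below wt (-0.70 ± 0.16, adjusted p 0.00045). Rescue libraries had 9.22, 17.3 and 12.3 CPM, all above CD28-/- and spread around wt. Rescue over CD28-/- was 0.68 ± 0.17 (adjusted p 0.0045), but without 24h rescue replicate 2, the highest library, it was 0.42 (adjusted p 0.15). The transgene effect in the CD28-/- background minus that in wt was -0.35 ± 0.23 (adjusted p 0.55). T1792delta/delta (14.6 ± 2.3 CPM) overlapped with wt.

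In naive cells Tigit lay between 5.83 and 11.3 CPM in every library and no genotype comparison was called by edgeR or had an unadjusted p below 0.05. Stimulation raised it by 1.69 ± 0.16 in T1792tg/tg, 0.76 ± 0.16 in T1792delta/delta, 0.62 ± 0.16 in wt and 0.62 ± 0.19 in rescue cells, the last lost without 24h rescue replicate 2 (0.36, adjusted p 0.086). In CD28-/- cells the response was 0.17 ± 0.17 (adjusted p 0.36). It exceeded wt by 1.07 ± 0.23 in T1792tg/tg cells (adjusted p 0.0014), and CD28-/- minus wt was -0.45 ± 0.23 (adjusted p 0.12), which passed in a fit of these groups alone (adjusted p 0.049) and without naive wt replicate 2 (-0.62, adjusted p 0.028). The follicular helper and memory marker list, with genes of cells that also express Tigit, summed at 24h to 282 to 394 CPM in rescue, 193 to 209 in CD28-/-, 635 to 646 in T1792tg/tg, 327 to 407 in T1792delta/delta and 341 to 402 CPM in wt libraries. Within it Cd44, an adhesion receptor of activated and memory cells, stood at 264 ± 6.25 CPM in T1792tg/tg against 103 ± 15.9 in wt libraries. Itgb1, also on the list, stood at 346 ± 7.71 against 248 ± 8.43 CPM. Cd44 and Itgb1 held most of the T1792tg/tg sum, and their naive wt means were 37.5 and 75.8 CPM. In wt cells 2 of the 9 markers rose and 5 fell from naive to 24h (85.2% of all genes called). The 24h sums can therefore rest on genes that stimulation raises, and need not follow the number of these cells. At 24h 5 of the 9 markers were higher and 0 lower in T1792tg/tg than in wt cells (12.5% of all genes called). The part of these markers in the Tigit values was not tested.

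Cd226 encodes DNAM-1, the stimulatory receptor that shares ligands with TIGIT. At 24h it had 51.5, 53.1 and 53.8 CPM in rescue, 35.1, 26.7, 33 and 36.8 CPM in CD28-/-, and 61.5, 81.8, 88.5 and 96 CPM in wt libraries. The 3 groups did not overlap, with rescue between the others. CD28-/- was below wt by -1.32 ± 0.14 (adjusted p 7.3e-10), rescue above CD28-/- by 0.68 ± 0.15 (adjusted p 9e-04) and rescue still below wt by -0.63 ± 0.15 (adjusted p 0.00091). T1792tg/tg (98.5 ± 10.9 CPM) and T1792delta/delta (90.9 ± 14.1 CPM) overlapped with wt (81.9 ± 14.8 CPM), and T1792tg/tg over wt was 0.26 ± 0.13 (adjusted p 0.2). The transgene effect in the CD28-/- background minus that in wt was 0.42 ± 0.20 (adjusted p 0.34).

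Naive Cd226 followed a different order, with rescue highest. It had 86.2, 102 and 76.4 CPM in rescue, 54.9, 61.4, 69.2 and 78.7 CPM in CD28-/-, 75.4, 76.4, 65.1 and 94.2 CPM in T1792tg/tg, and 49.7, 38.9, 52.5 and 59.9 CPM in wt libraries. Rescue and T1792tg/tg libraries all lay above wt, and CD28-/- overlapped with wt. The log2 fold change over wt was 0.81 ± 0.14 in rescue (adjusted p 7.3e-05) and 0.63 ± 0.14 in T1792tg/tg cells (adjusted p 8e-04). CD28-/- over wt was 0.39 ± 0.14 (adjusted p 0.045) and was lost without any of 6 of 8 libraries (CD28-/- replicates 2, 3 and 4, wt replicates 1, 2 and 3; 0.29 to 0.43, adjusted p 0.051 to 0.19). Rescue over CD28-/- was 0.42 ± 0.14 (adjusted p 0.042) and was lost without any of 5 of 7 (CD28-/- replicates 1, 2 and 3, rescue replicates 1 and 2; 0.30 to 0.44, adjusted p 0.063 to 0.24). Fits of the compared groups alone gave adjusted p of 0.088 and 0.096. T1792delta/delta, at 38 to 42.3 CPM, overlapped with wt (-0.33 ± 0.14, adjusted p 0.17). CD8 and NK cells express Cd226, and their marker sums are given with Lag3. The 24h sums, lower in CD28-/- than in wt libraries, carry the limit given there. The part of these markers in the Cd226 values was not tested.

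The direction of the Cd226 response depended on genotype. It rose by 1.18 ± 0.14 in T1792delta/delta, 0.71 ± 0.13 in wt and 0.34 ± 0.13 in T1792tg/tg cells, and fell by a log2 fold change of -1 ± 0.14 in CD28-/- and -0.74 ± 0.16 in rescue cells. CD28-/- minus wt was -1.71 ± 0.19 (adjusted p 9e-09), the largest difference between responses among the 10 receptors in that comparison. Rescue minus CD28-/- was 0.27 ± 0.21 (adjusted p 0.44). The T1792tg/tg rise (adjusted p 0.018, with overlap) was lost with DESeq2 (adjusted p 0.054) and without 24h T1792tg/tg replicate 4 or naive T1792tg/tg replicate 3 (adjusted p 0.06 and 0.073).

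Cd200 encodes a membrane glycoprotein that engages the inhibitory receptor CD200R. At 24h it had 226, 217 and 256 CPM in rescue, 213, 231, 222 and 236 CPM in CD28-/-, 504, 395, 415 and 428 CPM in T1792tg/tg, and 541, 524, 537 and 556 CPM in wt libraries. Rescue and CD28-/- libraries overlapped and lay far below wt, by -1.21 ± 0.10 (adjusted p 2.6e-11) and -1.26 ± 0.09 (adjusted p 1.8e-13). Rescue over CD28-/- was 0.05 ± 0.10 (adjusted p 0.8). T1792tg/tg was also wholly below wt, by -0.31 ± 0.09 (adjusted p 0.02), a call lost without T1792tg/tg replicate 2, 3 or 4 or wt replicate 4 (-0.30 to -0.26, adjusted p 0.053 to 0.07) and with a term for sex (adjusted p 0.052). T1792delta/delta had 592, 448, 594 and 583 CPM, with replicate 2 below all wt libraries and the others above them. The transgene effect in the CD28-/- background minus that in wt was 0.36 ± 0.13 (adjusted p 0.17), and it passed in a fit of these groups alone (0.33, adjusted p 0.045).

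In naive cells Cd200 was low everywhere, 11.4 to 24.3 CPM. T1792tg/tg libraries, at 21.4, 22.9, 19.2 and 24.3 CPM, lay above wt libraries at 14.2, 15.3, 16.5 and 15 CPM (0.53 ± 0.10, adjusted p 0.00023) and above every other naive library. B cells also express Cd200, and their markers summed to 262 to 446 CPM in naive T1792tg/tg and 145 to 301 CPM in wt libraries, with none of the 6 called. In the same comparison 5 of 9 follicular helper and memory markers and 5 of 7 regulatory markers were higher, with 0 lower in either list. Of all genes, 10.5% were higher and 12.6% lower there. The part of any of these markers in the naive Cd200 value was not tested. CD28-/- libraries lay below wt without overlap, with a difference of -0.30 ± 0.10 whose adjusted p rounded to 0.05 and was just above the threshold. It passed with DESeq2 (adjusted p 0.04), with a term for sex (adjusted p 0.045) and without naive CD28-/- replicate 1 (-0.36, adjusted p 0.027). The response was 5.25 ± 0.11 in T1792delta/delta and 5.14 ± 0.11 in wt cells, a fold of 38.1 and 35.4, and 4.31 ± 0.11 in T1792tg/tg, 4.18 ± 0.11 in CD28-/- and 4.10 ± 0.12 in rescue cells. It was smaller than in wt by -0.96 ± 0.14 in CD28-/- (adjusted p 7.9e-07) and -0.84 ± 0.13 in T1792tg/tg cells (adjusted p 8.1e-05).

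Cd5 encodes a receptor that dampens antigen receptor signals and whose level follows their strength in thymocytes. Its spread between naive libraries was small, with a coefficient of variation of 1.84% in T1792tg/tg to 7.65% in T1792delta/delta libraries. Naive libraries had 360, 347 and 358 CPM in rescue, 490, 487, 451 and 436 CPM in CD28-/-, 400, 394.5, 383 and 396 CPM in T1792tg/tg, and 510, 517, 494 and 500 CPM in wt. The groups were fully separate, with wt above CD28-/-, then T1792tg/tg, then rescue, while T1792delta/delta (496 to 589 CPM) overlapped with wt. T1792tg/tg was below wt by -0.36 ± 0.08 (adjusted p 0.00076) and rescue below CD28-/- by -0.39 ± 0.08 (adjusted p 0.0011), whereas CD28-/- minus wt was -0.12 ± 0.08 (adjusted p 0.32). Under DESeq2 size factors the naive rescue and T1792tg/tg means were 364 and 403 CPM, above 355 ± 7.01 and 393 ± 7.22 by more than 1 SD, with the same calls.

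At 24h Cd5 had 989, 830 and 896 CPM in rescue, 1003, 1146, 924 and 1119 CPM in CD28-/-, and 795, 763, 848 and 913 CPM in wt libraries. CD28-/- libraries all lay above wt (0.34 ± 0.08, adjusted p 0.00038), and rescue overlapped with both. Rescue over CD28-/- was -0.21 ± 0.08 (adjusted p 0.073), and it passed in a fit of these groups alone (adjusted p 0.049) and without 24h CD28-/- replicate 3 or 24h rescue replicate 1 (adjusted p 0.029 and 0.032). Stimulation raised Cd5 by 1.35 ± 0.09 in rescue, 1.17 ± 0.08 in CD28-/-, 1.06 ± 0.08 in T1792tg/tg, 0.77 ± 0.08 in T1792delta/delta and 0.71 ± 0.08 in wt cells. The rise was larger than in wt by 0.45 ± 0.11 in CD28-/- (adjusted p 0.00086) and by 0.35 ± 0.11 in T1792tg/tg cells (adjusted p 0.026). The second was lost without 24h T1792tg/tg replicate 3 or 4 or 24h wt replicate 1 or 2 (adjusted p 0.054 to 0.093) and in a fit of these groups alone (adjusted p 0.057).

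The comparison of responses themselves gathers these differences. Between CD28-/- and wt cells, 2 receptors had a higher response (Cd28 and Cd5) and 5 a lower one (Cd226, Cd200, Pdcd1, Lag3 and Btla), where 20.8% of all genes were higher and 22.4% lower, 43.3% together. Between T1792tg/tg and wt cells, 4 were higher (Tigit, Cd28, Icos and Cd5) and 3 lower (Pdcd1, Lag3 and Cd200), against 8.59% and 7.41% (16% together), and 4 in place of 7 were called without 24h wt replicate 2. The other 3 comparisons called none of the 10 in edgeR. For T1792delta/delta against wt, 3 had an unadjusted p below 0.05 and DESeq2 called 1, Btla (3.15% and 2.95% of all genes, 6.1% together). For rescue against CD28-/-, 3 had an unadjusted p below 0.05 and DESeq2 called 1, Icos (6.96% and 5.84%, 12.8% together), which edgeR also called without naive CD28-/- replicate 1 (0.63, adjusted p 0.028). For the 24h transgene effect in the CD28-/- background against that in wt, 3 had an unadjusted p below 0.05 and DESeq2 called none (1.33% and 0.784%, 2.11% together).

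**Figure D3:**
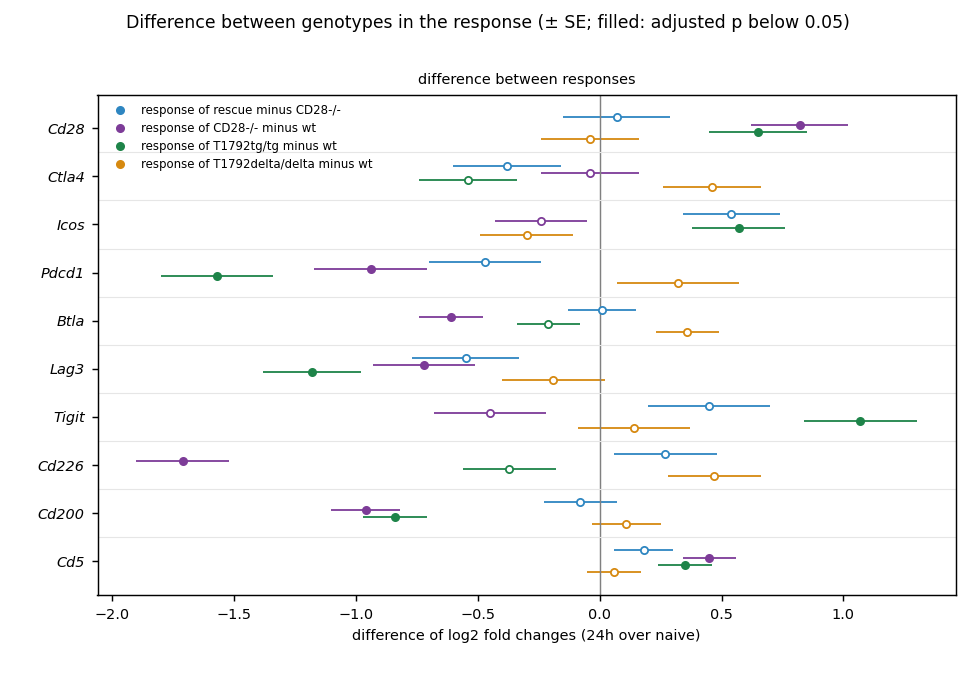
Difference between genotypes in the log2 response to stimulation (horizontal axis), with bars of 1 SE and filled points where the adjusted p was below 0.05. CD28-/- minus wt reaches -1.71 for Cd226, and T1792tg/tg minus wt spans -1.57 for Pdcd1 to 1.07 for Tigit.

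Other genes of the pathway were read from 4 lists, chosen with earlier results of these data known. Of 15 other receptors of T cells, 14 were tested, and 3 were higher and 11 lower at 24h than in naive wt cells (85.2% of all genes were called, 41.3% higher and 43.9% lower), with a median log2 fold change of -1.87. The lower ones included Cd96, a receptor for CD155 (43.9 ± 3.65 CPM at 24h and 232 ± 12.2 in naive wt cells), and Cd200r1, the receptor for CD200 (0.381 ± 0.0278 and 14.8 ± 3.83 CPM). All 7 myeloid and dendritic markers were also lower in that comparison, with a median log2 fold change of -4.93, and the part of such cells in the Cd200r1 values was not tested. Of the 14 receptors, 8 were higher and 3 lower in CD28-/- than in wt cells at 24h, where 51.5% of all genes were called (23.7% higher and 27.8% lower). The higher ones included Crtam, an adhesion receptor of activated T cells (83.7 ± 3.63 against 14 ± 1.74 CPM), and Cd27, a costimulatory TNF receptor (200 ± 8.74 against 93.4 ± 14.3 CPM). Crtam was also high in 24h rescue cells (92.6 ± 13.3 CPM). In naive cells Cd160, a further HVEM receptor, was higher in CD28-/- than in wt cells (22 ± 4.18 against 5.52 ± 1.01 CPM) and in T1792tg/tg than in wt cells (16 ± 3.04 against 5.52 ± 1.01 CPM). It was also higher in naive rescue than in wt cells, at 35.6 ± 10 CPM. The naive CD8 and NK marker sums given with Lag3 were above wt in the same groups. The part of such cells in the Cd160 values was not tested.

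Of 12 ligands of these receptors, 11 were tested, with 3 higher and 7 lower at 24h in wt cells, a share near the 85.2% of all genes called. Pdcd1lg2, a ligand of PD-1, had 61.9 ± 3.88 CPM in 24h and 1.73 ± 0.58 CPM in naive wt libraries. Between 24h CD28-/- and wt cells 4 ligands were higher and 3 lower (51.5% of all genes called), with Cd86, a ligand of CD28 and CTLA-4, at 1.26 ± 0.269 against 3.19 ± 0.583 CPM. It was at 2.47 ± 0.637 CPM in 24h rescue cells, higher than in CD28-/- cells (0.97 ± 0.24, adjusted p 0.0036). Of 20 proximal signalling genes, 14 were higher and 4 lower in CD28-/- than in wt cells at 24h (23.7% and 27.8% of all genes), where Pik3cd, a catalytic PI3-kinase subunit, had 607 ± 21.8 against 331 ± 8.25 CPM. The median of this list was 0.18 beside -0.03 over all genes. From naive to 24h, 3 of the 20 rose and 13 fell in wt cells (85.2% of all genes called). In CD28-/- cells 6 rose and 11 fell (80.9% called). Naive Pik3cd was at 834 ± 68.5 CPM in wt and 664 ± 43.6 in CD28-/- libraries, so its wt level was lower at 24h than before.

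Of 15 transcription factors linked to these receptors, activators and repressors among them, 6 were higher and 3 lower in 24h CD28-/- than in wt cells, a share near the 51.5% of all genes called. Tbx21, the T helper 1 factor T-bet, had 7.46 ± 1.85 against 117 ± 18.3 CPM, and 85.3 ± 30.6 CPM in 24h rescue cells, where it was higher than in CD28-/- cells (3.52 ± 0.26, adjusted p 1e-11). Eomes, a related T-box factor, was higher in T1792tg/tg than in wt cells both at 24h (25.6 ± 4.02 against 7.79 ± 2.04 CPM) and in naive cells (23 ± 6.08 against 8.45 ± 0.557 CPM). In naive cells 4 of the factors were higher and 7 lower in T1792tg/tg than in wt cells (10.5% and 12.6% of all genes). In naive CD28-/- cells 4 were lower and none higher than in wt cells (7.34% and 7.42% of all genes). Among the 4 was Irf4, a factor induced by antigen receptor signals (161 ± 26.7 against 323 ± 100 CPM).

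For likeness of pattern, log2 CPM over the 38 libraries was centred within each state and compared with 9496 genes by Pearson's r, as a description. The libraries share their group, depth and preparation. The most alike genes were Klf13 (0.877) and Foxp1 (0.869) for Cd28, Mfsd14a (0.859) and Ing3 (0.803) for Icos, and Wdyhv1 (0.874) and Trim59 (0.846) for Ctla4. For Pdcd1 they were Cd160 (0.867) and Txndc12 (0.836), for Btla Coq10b (0.906) and Ube2q2 (0.84), and for Lag3 Slc25a4 (0.873) and Tmem101 (0.834). Tigit was most like Cd44 (0.891) and Ripk2 (0.873), Cd226 like Dcp2 (0.917) and Ndc1 (0.9), Cd200 like Calhm2 (0.889) and Dbi (0.889), and Cd5 like Zbtb7b (0.871) and Stk38 (0.842). Among the receptors, Ctla4 and Cd200 had the highest r, 0.8, and Cd28 and Lag3 the lowest, -0.79.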

How the data were processed

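RNA-seq libraries of naive CD4 T cells were analysed from a table of raw read counts per Entrez gene, as deposited by the authors, with 1 column per library and a deposited width column giving a length in bases per gene. The tools in the submitters' processing notes are STAR 2.5.2a, FastQC 0.11.5, edgeR 3.24.3 and R 3.5, with the mm10 build. Per the labels' protocols, libraries were stranded and single-end. For the counting tool, its strand setting and its gene models the sources used here give nothing, so reads of overlapping or antisense genes cannot be told apart. Symbols came from RefSeq (23968 of 24028 IDs matched, the others holding 0.0749% of counts).

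Counts were filtered with filterByExpr and scaled with TMM, and 1 edgeR 4.0.16 quasi-likelihood fit (limma 3.58.1, R 4.3.3) with a coefficient for each of 10 groups held all 38 libraries. Tests were two-sided, with Benjamini-Hochberg adjustment over 13650 genes in each of 20 comparisons, and the SE is the log2 fold change over the square root of F. The scripts were tested on simulated data. CPM uses TMM-scaled totals, and TPM uses the deposited width. Totals of 19427291 to 28020721 counts make counting error small for all but the lowest genes. Across 54 pairs of replicates none agreed within sampling noise. Same-numbered 24h and naive libraries deviated together in every pair of wt and T1792delta/delta cells (correlations of 0.122 to 0.342 and 0.21 to 0.313), and the labels do not say whether they share a mouse. Likeness used log2 CPM with a prior count of 2 and genes averaging at least 5 CPM. Sequences were read with Python 3.11.15.

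The members and lists were chosen with earlier results of these data known. The text names the 10 receptors in every comparison, up to 2 list genes of smallest p among those called, and the 2 genes most like each receptor. Alternatives were DESeq2 1.42.0, its size factors, no filter, fits of the compared groups alone, leaving out each replicate or the 2 libraries standing apart, a term for sex and a replicate block.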

Additional observations from a re-analysis of the deposited data

Results flagged for a closer look

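In 4 of 80 groups of 4 libraries, 1 library stood apart from the others by Dixon's test at its 95% level, and chance alone marks about 1 in 20. Cd28 was at 299 CPM in 24h T1792delta/delta replicate 4, below 370, 376 and 380 CPM in the other libraries. Ctla4 was at 159 CPM in naive T1792delta/delta replicate 1, above 123, 128 and 129 CPM. Tigit was at 6.28 CPM in naive CD28-/- replicate 1, below 7.46, 7.48 and 7.53 CPM. Cd200 was at 448 CPM in 24h T1792delta/delta replicate 2, below 583, 592 and 594 CPM.

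Of 50 tests of a difference between differences in edgeR, 14 were called, and all 14 were differences between genotypes in the response to stimulation. The 50 include 10 tests of the transgene effect, which compares stimulated groups only and is not a response, and none of these was called. Over all genes, 43.3% were called for CD28-/- minus wt and 16% for T1792tg/tg minus wt. CD28-/- minus wt was 0.82 for Cd28 and 0.45 for Cd5 on the log2 scale. It was -0.94 for Pdcd1, -0.61 for Btla, -0.72 for Lag3, -1.71 for Cd226 and -0.96 for Cd200. T1792tg/tg minus wt was 0.65 for Cd28, 0.57 for Icos, 1.07 for Tigit and 0.35 for Cd5. It was -1.57 for Pdcd1, -1.18 for Lag3 and -0.84 for Cd200.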

How the results depend on the processing

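No value for a receptor changed direction while called, under any alternative run. Of 200 tests on the 10 receptors, the side of the threshold held in all 200 with DESeq2 size factors, 199 without the filter, 193 with DESeq2, 197 with a term for sex, 193 without the 2 libraries standing apart and 181 in fits of the compared groups alone, and in 1837 of the leave-one-out values, where 56 calls were lost and 17 gained. Called receptors went to 5 for 24h rescue against CD28-/- and 2 for naive rescue against CD28-/- in the groups alone. For 24h T1792delta/delta against wt the count was 1 without the filter and with the term for sex. Without the 2 libraries it was 5 for naive CD28-/- against wt. The count for the response of rescue against CD28-/- became 2 in the groups alone and 1 with DESeq2 or without the 2 libraries, for that of T1792delta/delta against wt 1 with DESeq2 or without the 2 libraries, and for the 24h transgene effect 1 in the groups alone. The cause was not tested.

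Leaving out single libraries gave, at 24h, 9 to 9 for CD28-/- against wt, 1 to 4 for rescue against CD28-/-, 6 to 6 for rescue against wt, 1 to 2 for T1792delta/delta and 2 to 3 for T1792tg/tg. In naive cells it gave 2 to 5, 3 to 6, 5 to 7, 0 to 0 and 7 to 8 for the same comparisons. Responses gave 7 to 9 for CD28-/-, 0 to 1 for rescue against CD28-/-, 0 to 1 for T1792delta/delta and 4 to 7 for T1792tg/tg. The 24h against naive counts ran 7 to 10 in rescue, 7 to 7 in CD28-/-, 9 to 10 in T1792tg/tg, 9 to 9 in T1792delta/delta and 8 to 9 in wt cells.

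Between states, pairing by replicate number held in wt (0.122 to 0.342) and T1792delta/delta cells (0.21 to 0.313), where every same-numbered 24h and naive pair had a correlation of deviations over 0.1, and not in every pair of the other genotypes. Of all 19 pairs 14 were over 0.1, and 16 of the 19 correlated best with their own number, a hint from the data since the labels do not state a pairing. Of 30 same-numbered pairs of a genotype with wt, 4 were over 0.1 (-0.223 to 0.177), all of them T1792tg/tg with wt. Low correlations cannot show that libraries of 1 number share nothing, so a link by number between genotypes was not settled. With the replicate block over all groups, 1 receptor in place of 2 was called for 24h T1792delta/delta against wt (Btla 0.26, adjusted p 0.052), and Cd200 in naive CD28-/- against wt (-0.30, adjusted p 0.046) and Pdcd1 in naive rescue against CD28-/- (0.52, adjusted p 0.021) were gained. With the replicate block within genotype, the Icos response of T1792tg/tg against wt was lost (0.54, adjusted p 0.073), leaving 6 called in place of 7, and no other call for a receptor changed.

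The count of all genes called in naive cells in the groups alone was 956 in place of 2015 for CD28-/- against wt, 802 in place of 2288 for rescue against CD28-/-, 1846 in place of 3566 for rescue against wt and 1913 in place of 3158 for T1792tg/tg against wt. At 24h it was 2631 in place of 1713 for T1792tg/tg against wt, 3851 in place of 2510 for rescue against CD28-/- and 929 in place of 288 for the transgene effect (524 with DESeq2, 487 without the 2 libraries). For the response of T1792delta/delta against wt DESeq2 called 1255 in place of 833, and naive rescue against wt had 2334 without the 2 libraries. Receptors at a few CPM in naive cells, Pdcd1, Lag3 and Tigit, have the least depth.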
